A study of Rattus norvegicus with 9 samples.

Results

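The genes described here are 10 matrix glycoproteins chosen by symbol from the 20194 genes of the deposited table: the thrombospondins Thbs1, Thbs2 and Thbs4, tenascin C (Tnc), periostin (Postn), fibronectin (Fn1), decorin (Dcn), lumican (Lum), fibromodulin (Fmod) and osteopontin (Spp1). Thbs2 was included because its level was higher with G15, so its values in these samples are given as a description with no test, and no count of test results includes it. RNA was sequenced from dorsal root ganglia (DRGs) of adult male Sprague Dawley rats, with 3 libraries in each of 3 groups. The groups were sham surgery, spared nerve injury (SNI), and SNI followed by intrathecal G15 (SNI + G15 group). G15 is an antagonist of the G protein-coupled oestrogen receptor GPER. The study's methods give 3 rats a group for sequencing, but its supplementary list of animals gives more. Whether each library came from a single rat is therefore not known. In SNI the tibial and common peroneal branches of the sciatic nerve are ligated and cut while the sural branch is left intact, so a ganglion holds injured and spared neurons together. Per the labels, the catheters were placed on day 5 after SNI and drugs dissolved in 2% DMSO were given for 24 h. The labels title the sham and SNI samples as G15 controls. Whether the sham and SNI rats of this experiment carried a catheter or received vehicle is not given in the sources used here. The libraries held 18484557 to 18756736 estimated reads each, and SNI + G15 replicate 3 differed more from its group mates than any other library did.

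Thrombospondins are secreted proteins that bind collagens, integrins and CD47, and in the nervous system they bind the calcium channel subunit alpha2delta-1, the target of gabapentin. Fibronectin, tenascin C, periostin and osteopontin are ligands of integrins, and osteopontin also binds CD44. Decorin, lumican and fibromodulin are small leucine-rich proteoglycans that coat collagen fibrils and shape their assembly. In sensory ganglia such matrix is made largely by fibroblasts and glia, whereas osteopontin is also abundant in large sensory neurons and in macrophages.

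Sequences upstream of the genes are shown first, for 3 members whose levels were higher with G15 (Thbs1, Thbs4 and Lum), 2 whose levels were higher after injury (Postn and Spp1) and 1 whose level was lower after injury (Fmod). Each is the 250 bases before the RefSeq start of the gene on the gene's own strand, in assembly GRCr8: Thbs1 chr3:125510000-125510249 (+ strand), Thbs4 chr2:25760346-25760595 (- strand), Lum chr7:34245456-34245705 (+ strand), Postn chr2:140677811-140678060 (+ strand), Spp1 chr14:5619805-5620054 (- strand) and Fmod chr13:48045317-48045566 (+ strand). Capitals mark matches to the motifs searched on both strands, and no printed match overlaps another. The AP-1 motif was searched as TGANTCA and the TATA element as TATAAA. The GC box was searched as GGGCGG, the element bound by NF-Y as CCAAT, and the repeat bound by SMAD proteins as CAGACA.
Thbs1: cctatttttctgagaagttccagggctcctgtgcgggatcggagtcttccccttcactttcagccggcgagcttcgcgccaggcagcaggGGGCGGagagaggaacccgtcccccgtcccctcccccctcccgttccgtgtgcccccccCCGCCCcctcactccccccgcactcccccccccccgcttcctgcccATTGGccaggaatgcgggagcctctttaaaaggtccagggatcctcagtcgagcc
Thbs4: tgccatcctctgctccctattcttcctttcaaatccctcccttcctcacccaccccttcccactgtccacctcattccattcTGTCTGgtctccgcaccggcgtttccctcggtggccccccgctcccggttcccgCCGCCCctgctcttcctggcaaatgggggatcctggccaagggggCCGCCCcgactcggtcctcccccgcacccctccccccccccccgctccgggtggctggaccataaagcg
Lum: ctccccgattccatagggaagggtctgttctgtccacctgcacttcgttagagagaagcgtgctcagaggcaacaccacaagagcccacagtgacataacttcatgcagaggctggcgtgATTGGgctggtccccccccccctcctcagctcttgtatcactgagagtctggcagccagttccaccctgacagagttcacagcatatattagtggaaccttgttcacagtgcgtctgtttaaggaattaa
Postn: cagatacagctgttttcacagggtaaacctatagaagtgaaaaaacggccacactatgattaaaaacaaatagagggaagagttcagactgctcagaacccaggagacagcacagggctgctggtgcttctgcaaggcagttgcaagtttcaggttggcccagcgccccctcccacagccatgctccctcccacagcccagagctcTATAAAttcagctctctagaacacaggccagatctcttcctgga
Spp1: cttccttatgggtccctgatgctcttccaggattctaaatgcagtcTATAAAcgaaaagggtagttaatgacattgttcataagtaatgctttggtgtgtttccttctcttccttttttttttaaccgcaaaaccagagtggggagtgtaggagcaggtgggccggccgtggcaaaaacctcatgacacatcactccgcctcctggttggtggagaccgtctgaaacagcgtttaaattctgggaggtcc
Fmod: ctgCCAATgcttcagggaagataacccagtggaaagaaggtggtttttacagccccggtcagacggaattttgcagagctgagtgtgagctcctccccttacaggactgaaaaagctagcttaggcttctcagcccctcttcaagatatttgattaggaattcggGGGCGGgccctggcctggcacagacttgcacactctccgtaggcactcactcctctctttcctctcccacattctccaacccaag

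A promoter was found in the RefSeq table for 7 of the 10 members, these 6 and Tnc. A GC box stood in 4 of the 7, against 30.5% of all 33469 rat promoters, and was absent from the windows of Lum, Postn and Spp1. TATAAA stood in 3 of the 7 (Postn, Spp1 and Tnc), against 12.9% of all promoters, and CCAAT in 3 (Thbs1, Lum and Fmod), against 34.0%. CAGACA stood in 2 (Thbs4 and Tnc), against 17.2%, and TGANTCA in 0, against 6.34%. The motifs are a description of these letters and of no factor's binding.

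Levels are given in FPKM, fragments per kilobase of transcript scaled to library size, which is scaled for length and so allows genes to be compared. In sham ganglia the mean levels ran, from high to low, Spp1, Dcn, Lum, Fn1, Tnc, Thbs4, Fmod, Thbs1, Thbs2 and Postn, and the highest was 736 times the lowest. Thbs1 and Thbs2 were the only neighbours in that order whose libraries overlapped. After SNI, Thbs2 stood above Thbs1, Fmod fell to the level of Postn, and those 2 genes overlapped. In the SNI + G15 group Thbs4 also stood above Tnc, and no neighbours overlapped. Replicates differed little: the median coefficient of variation over the members was 4.26% in sham, 1.95% in SNI and 5.12% in SNI + G15 libraries, with the highest value, 24.6%, for Postn in sham. Of the 10 members, 9 had at least 1 FPKM in every library, while Postn passed the filter on low values through the SNI and SNI + G15 libraries alone.

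**Figure D1:**
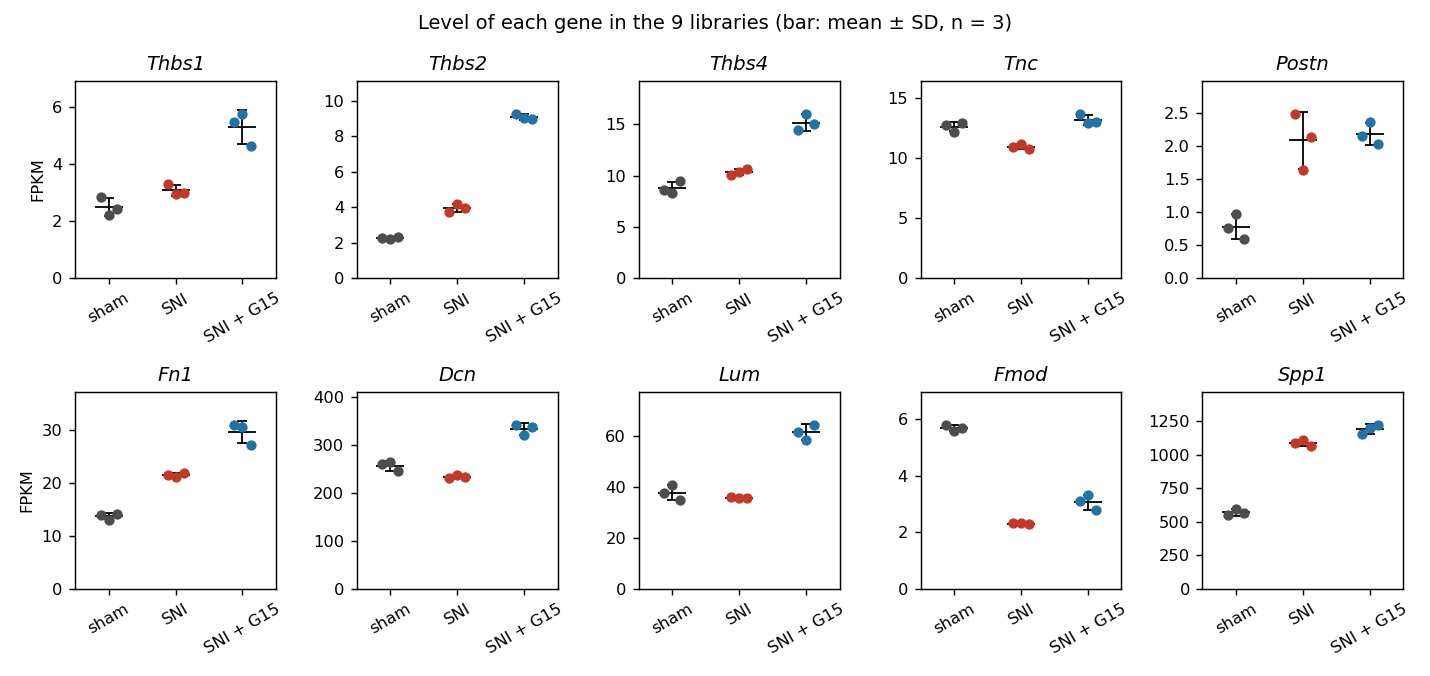
Level in FPKM (vertical axis, from 0) of each of the 10 genes in the 3 sham, 3 SNI and 3 SNI + G15 libraries; points are libraries, and bars give the mean ± SD (n = 3). Thbs1, Thbs2, Thbs4, Fn1, Dcn and Lum are highest in the SNI + G15 libraries, and Tnc is lowest in SNI. Postn and Spp1 differ mainly between sham and SNI, and Fmod is highest in sham.

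Thrombospondin mRNA was higher in the SNI + G15 libraries than in either other group. Thbs1, an activator of latent TGF-beta, measured 2.84, 2.21 and 2.41 FPKM in sham, 2.95 to 3.31 FPKM in SNI, and 5.49, 5.76 and 4.64 FPKM in SNI + G15 libraries. All SNI + G15 libraries lay above all others, and the SNI libraries lay just above sham. Against SNI the log2 fold change with G15 was 0.80 ± 0.0916 (SE, edgeR adjusted p = 0.000912). Against sham the rise after SNI was 0.28 ± 0.102 on the log2 scale (edgeR adjusted p = 0.0456), a call that was lost under 11 of 15 alternative settings. Without SNI replicate 1, 2 or 3 its adjusted p was 0.161, 0.0624 and 0.0757, and without sham replicate 2 or 3 it was 0.144 and 0.114.

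Thbs4, the most abundant of the family here and known to rise in the spinal cord after nerve injury, measured 8.56, 8.35 and 9.51 FPKM in sham, 10.02, 10.4 and 10.6 FPKM in SNI, and 14.45, 16.04 and 15.04 FPKM in SNI + G15 libraries. The 3 groups did not overlap. The log2 fold change with G15 against SNI was 0.57 ± 0.0578 (SE, edgeR adjusted p = 0.000505). The rise after SNI was smaller, 0.20 ± 0.0606 (edgeR adjusted p = 0.0202), and 5 of 15 alternatives lost it. Its adjusted p was 0.0654 and 0.0682 without sham replicate 1 or 2, and 0.0554 and 0.0713 without SNI replicate 2 or 3.

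Thbs2, a matricellular protein of fibroblasts that binds matrix metalloproteinase 2, measured 2.24, 2.20 and 2.29 FPKM in sham, 3.72, 4.16 and 3.96 FPKM in SNI, and 9.26, 9.03 and 8.97 FPKM in SNI + G15 libraries. The groups were far apart compared with the spread inside each, with means 1.76 times higher in SNI than in sham and 2.30 times higher in SNI + G15 than in SNI. Added together, Thbs1, Thbs2 and Thbs4 came to 12.8 to 14.2 FPKM in sham, 17.1 to 17.5 FPKM after SNI and 28.6 to 30.8 FPKM after SNI with G15. The make-up of that sum moved towards Thbs2, whose share was 16.1 to 17.2% in sham, 21.8 to 23.8% after SNI and 29.3 to 31.7% after SNI with G15. The share of Thbs4 was 62.8 to 66.9% in sham and 49.5 to 52.5% in SNI + G15 libraries, while that of Thbs1 overlapped across all 3 groups. As Thbs2 was chosen for its level, these shares are descriptions too.

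**Figure D2:**
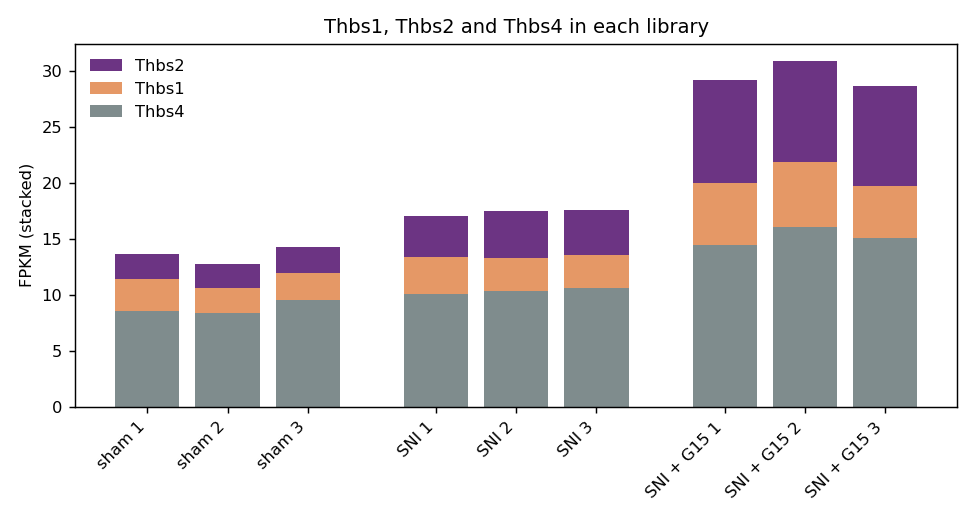
Stacked FPKM (vertical axis, from 0) of Thbs4, Thbs1 and Thbs2 in each of the 9 libraries. The whole bar reaches 12.8 to 14.2 FPKM in sham, 17.1 to 17.5 FPKM after SNI and 28.6 to 30.8 FPKM after SNI with G15, and the Thbs2 segment takes 16.1 to 17.2% of it in sham and 29.3 to 31.7% in SNI + G15 libraries.

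The other measured thrombospondins were not part of this pattern. Thbs3 and Comp, the cartilage oligomeric matrix protein, passed the test in 0 of 3 comparisons, and with G15 against SNI their log2 fold changes were 0.08 ± 0.118 and 0.0054 ± 0.0814 (SE). Of 6 listed thrombospondin receptors and partners, 4 rose and 0 fell after SNI, and 0 rose and 2 fell with G15. By the same adjusted p below 0.05, 23.3% of all tested genes rose and 22.4% fell after SNI, and 7.98% rose and 7.25% fell with G15. Cacna2d1, which encodes alpha2delta-1, averaged 19.4 FPKM in sham, 69.8 FPKM in SNI and 70.9 FPKM in SNI + G15 libraries. It rose by 1.82 ± 0.0413 on the log2 scale after SNI (edgeR adjusted p = 2.45e-10), and its difference with G15 was 0.04 ± 0.0431 (adjusted p = 0.585). Cd36, a scavenger receptor that binds thrombospondin 1, rose by 0.89 ± 0.177 after SNI (adjusted p = 0.00209), although 8 of 9 libraries held fractional counts for it, as when reads are shared with another gene. Sdc4, syndecan 4, rose after SNI from 15.2 to 19.5 FPKM (adjusted p = 0.000251), with fractional counts in 9 libraries. In SNI + G15 libraries it averaged 23.9 FPKM (adjusted p = 0.0543 against SNI and 0.000615 against sham). The 2 that fell with G15 were Cd47, the integrin-associated receptor, from 34.7 to 30.2 FPKM (adjusted p = 0.00898), and Calr, calreticulin, from 273 to 240 FPKM (adjusted p = 0.0118).

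The comparison of SNI with sham asks what injury alone did. Counts here are over the 8 tested members with at least 1 FPKM in every library, so without Postn, which entered the test through the injured groups. Of these 8, 7 passed an adjusted p of 0.05, 4 higher and 3 lower, where 45.7% of all 14305 tested genes passed, 23.3% higher and 22.4% lower. Ranges were apart between the groups for 7 of the 8, as for 53.9% of all genes. Their median log2 fold change was 0.04, or 0.20 with Postn, against 0.0010 over all tested genes. In this bulk tissue, fewer cells of a type and less RNA per cell cannot be told apart. Comparing SNI + G15 with SNI sets injured rats given the drug against injured rats without it. Since a catheter or vehicle in the SNI rats is not given, G15 cannot be told apart from these, here or in other values with G15. Here 8 of the 8 passed, all higher, where 15.2% of all genes passed, 7.98% higher and 7.25% lower, and the median was 0.50, against 0.0063 over all genes. The members were drawn up with results of this contrast known, so nothing is read from that count, nor from their ranges, which were apart for 8 of 8 and for 38.3% of all genes. Against sham, 7 of the 8 passed in the SNI + G15 group, 6 higher and 1 lower, where 43.2% of all genes passed, 21.4% higher and 21.9% lower, and ranges were apart for all 8, against 52.9% of all genes. The comparisons share the SNI and sham libraries and are not independent of each other.

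**Figure D3:**
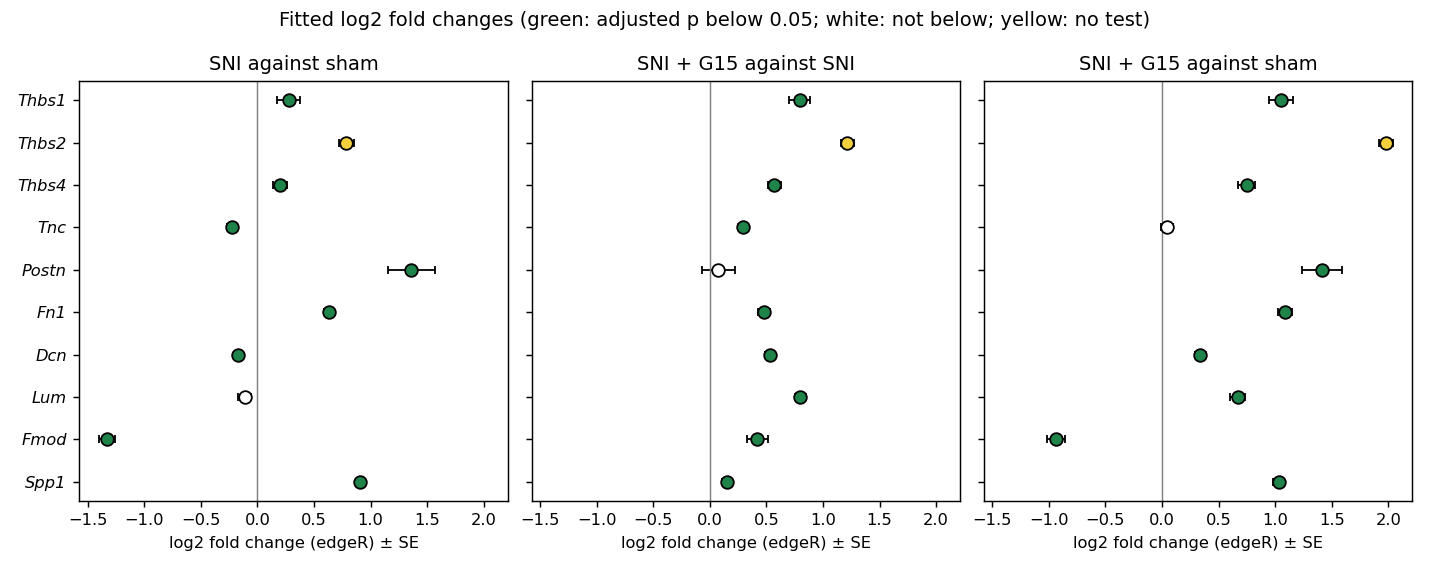
Log2 fold change ± SE fitted by edgeR (horizontal axis) for each of the 10 genes (vertical axis) in the 3 comparisons; green points have an adjusted p below 0.05, white points do not, and Thbs2 in yellow has no test. With G15 against SNI all points lie to the right of 0, with Postn within its SE of 0, and after SNI alone Postn and Fmod lie farthest out on opposite sides.

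Fn1, the fibril-forming ligand of integrin alpha5beta1, measured 14.0, 13.1 and 14.1 FPKM in sham, 21.5, 21.1 and 21.9 FPKM in SNI, and 31.1, 30.7 and 27.3 FPKM in SNI + G15 libraries. The 3 groups did not overlap. It rose after SNI by 0.63 ± 0.0425 on the log2 scale (SE, edgeR adjusted p = 8.72e-07) and was higher again with G15 by 0.48 ± 0.0516 (adjusted p = 0.000684).

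Reads of Fn1 were divided among its transcripts differently in sham and injured ganglia. The table lists 11 Fn1 transcripts, whose lengths are implied by their counts and FPKM. One of 8178 bases took 4.35 to 9.64% of Fn1 FPKM in sham, 38.1 to 44.7% after SNI and 21.4 to 38.7% after SNI with G15. Another, of 7824 bases, took 23.5 to 33.9% in sham, 4.39 to 8.76% after SNI and 4.91 to 11.5% after SNI with G15. The most abundant in sham, of 7902 bases, took 35.8 to 52.9%, 32.7 to 35.9% and 34.9 to 42.4%, respectively. Fibronectin is known for alternative splicing of its extra domains, but which exons these models hold was not analysed here. How an estimate divides reads among 11 overlapping models is uncertain, and with 3 libraries a group these shares are given without a test.

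**Figure D4:**
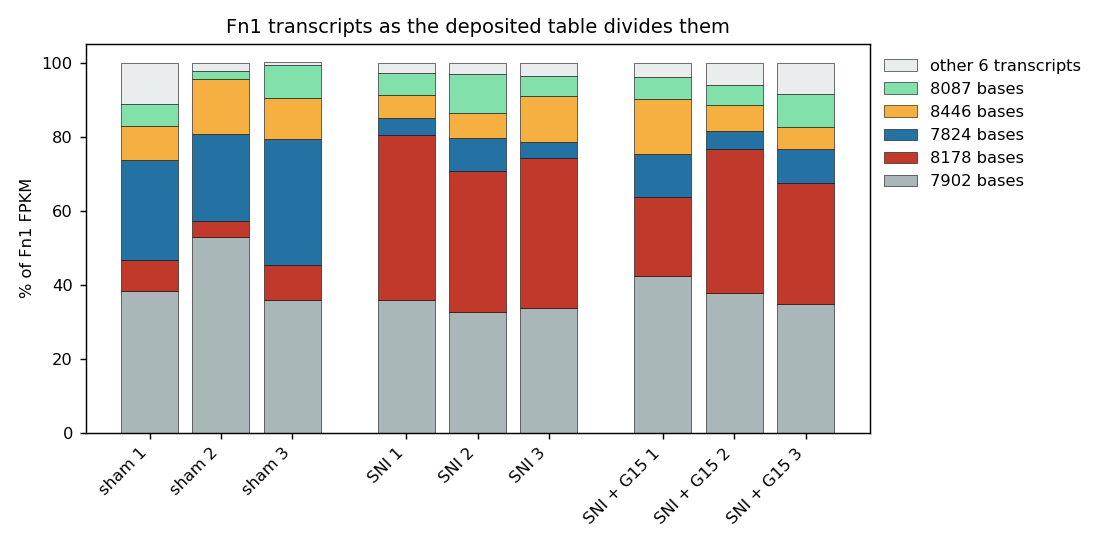
Percent of Fn1 FPKM (vertical axis, stacked to 100) assigned to 5 transcripts, named by implied length in bases, and to the other 6 together, in each of the 9 libraries. The 8178-base transcript is a thin band in sham and a wide one after SNI with or without G15, and the 7824-base transcript shows the opposite.

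Tnc, an anti-adhesive glycoprotein of injured tissue, measured 12.8, 12.2 and 12.9 FPKM in sham, 10.9, 11.1 and 10.7 FPKM in SNI, and 13.7, 12.9 and 13 FPKM in SNI + G15 libraries. The SNI libraries were the lowest, and those of the SNI + G15 group lay at or just above sham. It fell by 0.23 ± 0.0424 on the log2 scale after SNI (SE, edgeR adjusted p = 0.00144) and was higher by 0.29 ± 0.043 with G15 (adjusted p = 0.00291). Against sham the SNI + G15 difference was 0.05 (adjusted p = 0.52). Of the other tenascins only Tnr, which is made by glia, had enough signal to test. It fell in all 3 comparisons, by 0.37 after SNI (adjusted p = 0.00637) and by 0.45 with G15 (adjusted p = 0.0423), with fractional counts in 9 of 9 libraries.

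Postn, a fasciclin-domain protein that crosslinks collagen, was the scarcest member, at 0.76, 0.97 and 0.59 FPKM in sham, 2.48, 1.63 and 2.13 FPKM in SNI, and 2.14, 2.35 and 2.03 FPKM in SNI + G15 libraries, from 36 to 147 reads a library. Every SNI library was above every sham library, and the SNI and SNI + G15 libraries overlapped. It rose after SNI by 1.36 ± 0.205 on the log2 scale (SE, edgeR adjusted p = 0.000331). Since the filter admitted it through the injured groups alone, it was also fitted with every gene of at least 1 count, where the value was 1.35 (adjusted p = 0.00028). The difference with G15 was 0.08 ± 0.149 (adjusted p = 0.755) and turned to -0.067 without SNI replicate 2.

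The 3 small leucine-rich proteoglycans did not move alike. Dcn, which binds collagen I and TGF-beta, measured 261, 264 and 245 FPKM in sham, 231, 237 and 232 FPKM in SNI, and 342, 319.6 and 338 FPKM in SNI + G15 libraries. The SNI libraries lay below sham and the SNI + G15 libraries well above both. It fell by 0.17 ± 0.0362 on the log2 scale after SNI (SE, edgeR adjusted p = 0.00335) and was higher by 0.53 ± 0.0382 with G15 (adjusted p = 7.64e-05).

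Lum, the keratan sulphate proteoglycan of collagen fibrils, measured 37.4, 40.8 and 34.8 FPKM in sham, 35.8, 35.5 and 35.4 FPKM in SNI, and 61.4, 58.3 and 64.3 FPKM in SNI + G15 libraries. The sham and SNI libraries overlapped, and the SNI + G15 libraries stood clear of both. With G15 it was higher by 0.80 ± 0.0505 on the log2 scale (SE, edgeR adjusted p = 3.64e-05), and after SNI alone its value was -0.11 ± 0.0573 (adjusted p = 0.14), -0.16 without sham replicate 3 (adjusted p = 0.0333) and -0.05 without sham replicate 2 (adjusted p = 0.424). Within a library, the ratio of Lum to Dcn was 0.142 to 0.154 in sham, 0.150 to 0.155 after SNI and 0.179 to 0.190 after SNI with G15, so Lum was higher relative to Dcn in every library given G15.

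Fmod, which competes with Lum for a site on collagen I, measured 5.81, 5.58 and 5.70 FPKM in sham, 2.31, 2.33 and 2.28 FPKM in SNI, and 3.10, 3.31 and 2.77 FPKM in SNI + G15 libraries. The groups did not overlap, and those given G15 remained far below sham. It fell by 1.33 ± 0.0692 on the log2 scale after SNI (SE, edgeR adjusted p = 1.3e-07) and in SNI + G15 was lower than sham by a log2 value of -0.94 (adjusted p = 1.24e-05). The rise with G15 against SNI was 0.42 ± 0.093 (adjusted p = 0.0194), and 5 of 15 alternatives lost it: its adjusted p was 0.0646, 0.0688 and 0.0806 without SNI replicate 1, 2 or 3, 0.0616 without SNI + G15 replicate 2, and 0.0785 by DESeq2. Fractional counts were present for it in 5 of 9 libraries. The ratio of Fmod to Lum was 0.137 to 0.164 in sham, 0.0644 to 0.0656 after SNI and 0.0431 to 0.0568 after SNI with G15.

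Of 11 other small leucine-rich proteoglycans, 7 had enough signal to test, and 5 of these fell and 0 rose after SNI (median log2 fold change -0.72). Among all tested genes 22.4% fell and 23.3% rose after SNI. Ogn, osteoglycin, fell from 25.5 to 14.3 FPKM (adjusted p = 2.14e-06), and Omd, osteomodulin, from 3.87 to 1.66 FPKM (adjusted p = 2.41e-05). Aspn, asporin, fell from 2.27 to 1.14 FPKM (adjusted p = 0.00262). Ecm2 averaged 1.19 FPKM in sham, 0.717 FPKM in SNI and 0.573 FPKM in SNI + G15 libraries. Its means lay close to or below the 1 FPKM of the filter, so no p-value is given for it. With G15, where 7.98% of all tested genes rose and 7.25% fell, 3 of the 7 rose and 0 fell. These were Bgn, biglycan, the close relative of Dcn, from 38.4 to 56.5 FPKM (adjusted p = 0.000148), Podn, podocan, from 2.42 to 3.43 FPKM (adjusted p = 0.00541), and Prelp, from 11.5 to 13.7 FPKM (adjusted p = 0.00316). Podn and Prelp had fallen after SNI, from 3.66 and 14.4 FPKM in sham (edgeR adjusted p = 0.000124 and 3.14e-05). In SNI + G15 against sham they did not pass (adjusted p = 0.239 and 0.0508), while Bgn was above its sham mean of 39.5 FPKM (adjusted p = 4.94e-05). Aspn, Ecm2, Bgn and Podn had fractional counts in 9 of 9 libraries.

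Spp1, osteopontin, was the most abundant member at 549, 597 and 562 FPKM in sham, 1084, 1110.05 and 1066 FPKM in SNI, and 1156, 1199 and 1225 FPKM in SNI + G15 libraries. In sham it exceeded 99.4% of tested genes. The groups did not overlap, but the gap between SNI and SNI + G15 was small beside that between sham and SNI. It rose by 0.90 ± 0.0362 on the log2 scale after SNI (SE, edgeR adjusted p = 1.65e-08). The value with G15 was 0.15 ± 0.0362 (adjusted p = 0.0278), and 7 of 15 alternatives lost that call, at an adjusted p of 0.0966, 0.0772 and 0.122 without SNI replicate 1, 2 or 3 and 0.0682 without SNI + G15 replicate 2. Ibsp, bone sialoprotein, another member of the osteopontin family, averaged 0.88 FPKM in sham, 2.06 FPKM in SNI and 2.14 FPKM in SNI + G15 libraries. Its sham mean lay below the 1 FPKM of the filter, so no p-value is given for it.

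Receptors of these ligands were counted in the same way. Of 12 tested integrin, CD44 and syndecan genes, 9 rose and 2 fell after SNI, where 45.7% of all genes passed, and with G15 against SNI 0 rose and 3 fell, where 15.2% did. The 9 include Itga4, whose means of 0.58 FPKM in sham and 0.963 FPKM in SNI lay below the 1 FPKM of the filter. Sdc1, syndecan 1, a heparan sulphate proteoglycan that binds fibronectin and thrombospondin, averaged 2.02 FPKM in sham, 11.5 FPKM in SNI and 11 FPKM in SNI + G15 libraries, a rise of 2.48 ± 0.0646 on the log2 scale after SNI (SE, adjusted p = 5.66e-10). Cd44 rose from 39.5 to 66.7 FPKM after SNI (adjusted p = 3.11e-07) and was 59.7 FPKM with G15, a small fall (adjusted p = 0.0482). Itgb1, the chain shared by many matrix receptors, rose from 95.4 to 140 FPKM after SNI (adjusted p = 1.26e-06) and Itgb8, which activates latent TGF-beta, from 13.8 to 25 FPKM (adjusted p = 8.12e-07), both with fractional counts in 8 or 9 libraries. Itga5, the fibronectin receptor chain, rose from 2.10 to 3.41 FPKM after SNI (adjusted p = 0.000382), and Itgb6, an epithelial chain, fell from 2.83 to 1.85 FPKM after SNI (adjusted p = 0.000164) and to 1.15 FPKM with G15 (adjusted p = 0.00302).

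Among 15 other matricellular and fasciclin proteins, 4 rose and 7 fell after SNI, and 6 rose and 2 fell with G15. The shares over all tested genes were 23.3% higher and 22.4% lower after SNI, and 7.98% higher and 7.25% lower with G15. Ccn5, a member of the CCN family of growth regulators, averaged 2.00 FPKM in sham, 0.517 FPKM in SNI and 4.36 FPKM in SNI + G15 libraries. Its log2 values were -1.97 ± 0.248 after SNI and 3.08 ± 0.198 with G15 (SE). As the SNI mean lay below the 1 FPKM of the filter, no p-value is given for it, though the counts above include it. Fbln1, fibulin 1, averaged 11.9 FPKM in sham, 10 FPKM in SNI (adjusted p = 0.00582) and 20.4 FPKM with G15 (adjusted p = 5.38e-05), with fractional counts in 9 of 9 libraries. Smoc2, a calcium-binding matrix protein, rose with G15 from 5.53 to 9.59 FPKM (adjusted p = 0.0005), as did Ccn1 from 2.37 to 3.89 FPKM (adjusted p = 0.00749). Ccn2 and Ccn3 fell after SNI, from 6.59 to 3.87 FPKM (adjusted p = 1.83e-05) and from 7.21 to 4.09 FPKM (adjusted p = 1.86e-05). Sparcl1, an anti-adhesive relative of Sparc, fell after SNI from 108 to 79.3 FPKM (adjusted p = 1.13e-06). In SNI + G15 libraries it averaged 68.8 FPKM (adjusted p = 0.0151 against SNI and 2.7e-06 against sham). Tgfbi, a fasciclin protein like Postn, rose after SNI from 27.5 to 44.3 FPKM (adjusted p = 1e-06) and averaged 47.7 FPKM with G15 (adjusted p = 0.127).

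Of 10 TGF-beta ligands, receptors and latency proteins, 5 rose and 2 fell after SNI, and 3 rose and 0 fell with G15. For all tested genes these shares were 23.3% and 22.4% after SNI, and 7.98% and 7.25% with G15. Tgfb1 averaged 12.1 FPKM in sham, 18.1 FPKM in SNI (adjusted p = 7.01e-05) and 21.5 FPKM in SNI + G15 libraries (adjusted p = 0.032 against SNI). Tgfbr1, the type I receptor, rose from 3.40 to 5.97 FPKM after SNI (adjusted p = 7.28e-07), with fractional counts in 6 libraries. Ltbp1, which tethers latent TGF-beta to fibronectin, rose from 1.46 to 2.73 FPKM after SNI (adjusted p = 1.56e-05) and averaged 2.99 FPKM with G15 (adjusted p = 0.148).

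The tissue label was checked by 9 neuron markers. They summed to 13900 to 14300 FPKM in sham, 12400 to 12700 FPKM after SNI and 12600 to 13300 FPKM after SNI with G15. Of these 9, 2 rose and 5 fell after SNI, and 2 rose and 1 fell with G15. Over all tested genes, 23.3% rose and 22.4% fell after SNI, and 7.98% rose and 7.25% fell with G15. Of 9 other fibroblast markers, 2 rose and 6 fell after SNI, and 8 rose and 0 fell with G15. Their summed level was 360 to 376 FPKM in sham, 298 to 303 FPKM after SNI and 372 to 379 FPKM after SNI with G15, and 0 of the 9 were at 0. Gsn, gelsolin, was the largest part of the sum in each group. It averaged 152 FPKM in sham and 98.4 FPKM in SNI, and its log2 fold change with G15 against SNI was 0.33. Col1a1 averaged 70.9 FPKM in sham and 71.0 FPKM in SNI, so the fall of the sum after SNI came mostly from Gsn. Ratios to the sum below therefore depend on Gsn more than on any other marker. With G15, Dpt, dermatopontin, rose from 1.69 to 3.14 FPKM (adjusted p = 0.0166) and Clec3b, tetranectin, from 4.21 to 6.52 FPKM (adjusted p = 0.00854). After SNI the median log2 fold change was -0.26 for these markers and 0.04 for the 8 members, and with G15 against SNI it was 0.31 and 0.50. Divided by that sum within each library, Lum came to 11.8 to 11.9% after SNI and 15.4 to 17.0% after SNI with G15, Dcn to 76.3 to 79.5% and 84.2 to 92.1%, Thbs4 to 3.30 to 3.52% and 3.89 to 4.23%, and Thbs1 to 0.986 to 1.09% and 1.22 to 1.52%. These 4 stayed apart relative to that sum, with Thbs2 likewise at 1.23 to 1.40% and 2.37 to 2.49%, whereas Tnc overlapped at 3.56 to 3.73% and 3.40 to 3.67%, Fn1 at 7.09 to 7.26% and 7.19 to 8.37%, Fmod at 0.757 to 0.782% and 0.731 to 0.873%, and Postn at 0.547 to 0.817% and 0.536 to 0.619%. Spp1, which was higher with G15 in FPKM, was lower relative to that sum, at 354 to 372% and 311 to 323%. Levels per fibroblast were not tested.

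The marker counts below stand beside the same shares of all tested genes. These were 23.3% higher and 22.4% lower after SNI, and 7.98% higher and 7.25% lower with G15. Macrophage markers, 9 in all, summed to 126 to 137 FPKM in sham, 284 to 304 FPKM after SNI and 307 to 336 FPKM after SNI with G15, with 8 rising after SNI and 3 with G15. The 7 markers of pericytes and smooth muscle summed to 61.2 to 64.8, 70.0 to 76.6 and 96.9 to 103 FPKM, with 3 rising after SNI and 4 with G15. Schwann cell markers, 8 in all, summed to between 6100 and 6240 FPKM in sham, between 3600 and 3670 FPKM in SNI and between 3950 and 4010 FPKM in SNI + G15 libraries. Of the 8, 6 fell after SNI and 6 rose with G15. Markers of the meningeal and epineurial barrier, of which 7 could be tested, summed to 1040 to 1150 FPKM in sham but 247 to 257 FPKM after SNI and 261 to 275 FPKM after SNI with G15. Of the 7, 1 rose and 5 fell after SNI, and 2 rose and 1 fell with G15. These counts include Slc47a1, Slc22a6 and Msln, whose SNI means lay below the 1 FPKM of the filter, so nothing is read from the counts. The sum was mostly Ptgds, prostaglandin D synthase, which averaged 1030 FPKM in sham, 202 FPKM in SNI and 215 FPKM in SNI + G15 libraries. Slc47a1, Slc22a6 and Cldn1 fell after SNI too. They averaged 2.93, 0.537 and 1.2 FPKM, 1.51, 0.257 and 0.373 FPKM, and 7.09, 6.12 and 6.12 FPKM in the 3 groups. The rest did not all follow Ptgds: Krt19 averaged 1.48, 3.37 and 1.15 FPKM, Msln, mesothelin, 0.317, 0.103 and 1.83 FPKM, and Slc2a1 38.6, 38.8 and 41.9 FPKM. The 4 erythroid markers all rose after SNI, from 255 to 296 FPKM to 866 to 917 FPKM, and all fell with G15, to 527 to 587 FPKM. Satellite glia, endothelium and skeletal muscle had 1, 1 and 0 markers higher with G15, and 1, 1 and 0 lower. The 7 injury genes of sensory neurons all rose after SNI, and 1 rose with G15. Among them, Sprr1a averaged 0.0467 FPKM in sham, below the 1 FPKM of the filter. The part of cell make-up, tissue taken with the ganglion or retained blood in the members' levels was not tested.

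Genes with the most similar profiles were sought by the mean absolute difference in log2(FPKM + 1), centred on each gene's mean over the 9 libraries. For Thbs2 they were Hmox1, haem oxygenase 1 (0.0922), at 12.7, 22.4 and 45.8 FPKM in sham, SNI and SNI + G15, Clcf1, a cytokine of the interleukin 6 family (0.093), and Mt1, metallothionein 1 (0.113). The genes nearest to Thbs4 were Vwa1, a basement membrane protein (0.0523), St6galnac2 (0.0618) and the intermediate filament gene Vim (0.0637). Dcn was followed most closely by Scara5 (0.0446), Clmn (0.05) and Col3a1 (0.0523). For Spp1 they were Tmbim1 (0.0348), Rab15 (0.0366) and the neuronal tubulin Tubb2b (0.0404), at 371, 761 and 814 FPKM in the 3 groups. These are likenesses of profile over 9 libraries in 3 groups and carry no test.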

How the data were processed

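RNA-seq of rat DRG, 3 libraries in each of 3 groups, was analysed from gene and transcript tables. The authors estimated counts and summed transcript FPKM to gene FPKM before deposit; the deposited estimated counts and FPKM were used here, and the deposited TPM values were not used. The labels name the mouse builds GRCm38 and mm10, although the gene IDs are those of rat; a rat build is not given in the sources used here, so no coordinate is attached to expression values. The labels' extraction text also mentions macrophages, and the labelled tissue is DRG. Columns named Control were taken as sham, the only group left without columns.

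Counts were rounded and tested with the quasi-likelihood test of edgeR 4.0.16 (R 4.3.3, TMM factors, 2 groups per fit) on the 14305 of 20194 genes with at least 1 FPKM in at least 1 library, with Benjamini-Hochberg adjustment and a threshold of 0.05. The study's methods used DESeq2 with the same FPKM filter, so DESeq2 1.42.0 was an alternative, beside limma 3.58.1 on log2(FPKM + 1) and log2(FPKM + 0.1), other scaling and filters, all 9 samples in a single fit, the replicate number as a block, and each library left out in turn. The test was tried on simulated data. Each library is labelled as a separate sample of its group, and p-values measure the spread between these samples. Errors cover 3 libraries a group.

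The 10 members and all gene lists (thrombospondin family, receptors and partners, tenascins, matricellular proteins, small leucine-rich proteoglycans, osteopontin family, integrins, TGF-beta genes, cell markers and injury genes) were chosen with earlier results of these data known. From each list of matrix genes and receptors, in each comparison, up to 4 genes with the smallest adjusted p were named, among those with an adjusted p below 0.05 and a log2 change of at least 0.5, and for 4 members the 3 nearest profiles. Cell markers and injury genes are given by counts and sums, with a few of the genes this rule names. Thbs3, Comp, Cd47, Calr, Prelp, Itga4, Itga5, Col1a1, Cldn1 and Slc2a1 fall outside it and were chosen after their values were seen. Of listed genes, 7 were matched through RefSeq gene IDs and 1 had no row.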

Additional observations from a re-analysis of the deposited data

How the results depend on the processing

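For the 9 tested members in 3 comparisons, 27 fold changes were refitted under 15 alternatives each, 405 in all. Of these, 375 kept direction and side of the threshold, 28 lost the call, 1 gained it and 1 reversed: Postn with G15 against SNI was -0.067 without SNI replicate 2 and at most 0.22 with any other library left out. The number of the 9 members that passed ran from 6 to 8 after SNI and with G15 against SNI, and was 8 throughout for SNI + G15 against sham. It includes Postn, which entered the test through the injured groups. In the main fits 45.7%, 15.2% and 43.2% of all tested genes passed in these 3 comparisons. Over the same settings the genes passing ran from 5343 to 6954, from 893 to 2419 and from 5101 to 6880. The lost calls were Thbs1 and Thbs4 after SNI, and Fmod and Spp1 with G15 against SNI. Samples with the same replicate number did not deviate together (correlations -0.128 to 0.0688, 0 of 9 above 0.1). At 3 libraries a group this cannot exclude pairing, and the main fits did not use the number. With the number as a replicate block, the genes passing with G15 against SNI went from 2179 to 1292, and the call of Spp1 was lost (adjusted p = 0.0971); no other member's call changed. Leaving out single libraries, that count ran from 893 to 2333 and was lowest without SNI replicates 1, 2 and 3 (1098, 925 and 893). Postn rests on few reads, and its SE is the largest of the members.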
